A study of Mus musculus with 25 samples.

Results

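10 genes of TREM2 signalling and lipid handling were followed through macrophages sorted from mouse glioblastoma, an aggressive brain tumour. They were chosen by name: Trem2 and its adaptor Tyrobp, the lipoprotein genes Apoe and Apoc1, the lipase gene Lpl, the cholesterol exporters Abca1 and Abcg1, the sterol enzymes Ch25h and Soat1, and the lipid droplet gene Plin2. All 10 were among the 30749 genes of the table and among the 17216 with enough reads to test. Levels are normalised counts, that is reads divided by a size factor per library, and differences are log2 fold changes of normalised count + 1 with their standard errors from limma, called where the Benjamini-Hochberg adjusted p was under 0.05. Microglia, the resident macrophages of the brain, and monocyte-derived macrophages (MDM, which enter from the blood) had been sorted from tumours of 2 types, labelled 1 and 2, that were either spontaneous or transplanted. Each of the 4 tumour classes gave 3 microglia libraries. MDM gave 2 libraries from type 1 spontaneous, 4 from type 1 transplanted, 1 from type 2 spontaneous and 2 from type 2 transplanted tumours. The labels give no strain, allele, age, sort gate or treatment for any group, and do not say what sets type 1 apart from type 2. Nor do they say whether replicate libraries were taken from different mice; p-values therefore gauge library-to-library spread, part of which may be technical. The 4 normal brain microglia samples were not analysed here, so no level below is set against microglia without a tumour.

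TREM2 is a surface receptor of microglia and other macrophages that binds lipids and lipoproteins, APOE among them, and signals through the adaptor TYROBP (DAP12) to the kinase SYK. Cells that have taken up lipid break down lipoproteins and myelin in lysosomes, and the freed cholesterol is exported through ABCA1 and ABCG1, esterified by SOAT1 and stored in droplets coated by PLIN2, or oxidised to 25-hydroxycholesterol by CH25H. Sterol-activated nuclear receptors (LXR) raise Abca1, Abcg1, Apoe and Apoc1 in loaded macrophages, and Trem2, Apoe and Lpl belong to the programme of microglia near damage.

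Promoters are shown for Trem2 and Abca1, the members whose lower level in MDM held in the most fits, and for Plin2, the member that stood higher in MDM in part of the fits. The sequences are the 250 bases before the RefSeq transcription start in GRCm38.p6, given 5′ to 3′ on the gene's strand, at chr17:48346151-48346400 (plus strand), chr4:53159896-53160145 (minus strand) and chr4:86670060-86670309 (minus strand). Capitals mark every match, on either strand, to 5 short motifs spelled out after the sequences.
Trem2: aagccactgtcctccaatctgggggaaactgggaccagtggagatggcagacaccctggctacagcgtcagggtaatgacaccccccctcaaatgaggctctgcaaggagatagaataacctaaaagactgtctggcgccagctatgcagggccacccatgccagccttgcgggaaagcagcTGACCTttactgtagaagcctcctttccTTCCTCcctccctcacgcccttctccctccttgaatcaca
Abca1: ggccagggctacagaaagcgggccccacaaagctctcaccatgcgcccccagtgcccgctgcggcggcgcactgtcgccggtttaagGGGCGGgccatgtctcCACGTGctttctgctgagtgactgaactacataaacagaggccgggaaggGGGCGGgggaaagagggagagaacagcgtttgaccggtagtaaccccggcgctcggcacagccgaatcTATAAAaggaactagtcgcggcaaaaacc
Plin2: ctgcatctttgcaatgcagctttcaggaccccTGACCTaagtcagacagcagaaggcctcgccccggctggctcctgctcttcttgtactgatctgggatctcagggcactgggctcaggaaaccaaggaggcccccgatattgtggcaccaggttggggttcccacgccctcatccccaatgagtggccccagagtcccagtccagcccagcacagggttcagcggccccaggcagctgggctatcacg
The Trem2 window held 1 match to GAGGAA, the core of sites for the macrophage factor PU.1, beginning at -40 from the start. That core was in 23.3% of 32851 promoter windows of the same length. At -68 the Trem2 window also held AGGTCA, a half-site of nuclear receptors, which 14% of windows share. In the Plin2 window the only match was this half-site, at -218. The Abca1 window held a TATAAA match at -29, found in 12.4% of windows. Its E-box, with the letters CACGTG, lay at -147 and is found in 6.02%. GC boxes, with the letters GGGCGG, lay at -163 and -97 of Abca1 and are found in 32.7%. An exact repeat of AGGTCA, in the same direction with 4 free bases between, is a form bound by LXR. It was in none of the windows of the 6 members with a promoter entry (Trem2, Apoe, Abca1, Ch25h, Soat1 and Plin2), and in 0.0152% of all windows. The search took only these exact letters, so it cannot show whether LXR sites with other letters are present. These matches describe letters in a short window, not binding.

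Libraries held 26530069 to 50365607 reads. All 10 microglia markers were lower and all 10 MDM markers higher in MDM, among them Tmem119 (-4.31) and P2ry12 (-5.35) on the one side and Ccr2 (5.85) and Itga4 (5.60) on the other (log2 fold changes). Some libraries stood apart. The 14 T and NK cell markers tested were all higher in MDM, and their summed level was 251662 to 312495 normalised counts in MDM from type 1 transplanted tumours (4 libraries), 306661 in type 2 transplanted MDM replicate 1, 12216 to 41903 in the other 4 MDM libraries and 108 to 6185 in microglia. Microglia markers also reached the MDM libraries unevenly: as a percentage of the microglia median, their sum was 0.994% to 1.7% in type 1 transplanted MDM, 2.64% in type 2 transplanted MDM replicate 1, and 7.65% to 20.2% in the others. The 5 MDM libraries with high T and NK sums are called lymphocyte-rich below, and results that rest on them are given with and without them. Leaving them out removes all type 1 transplanted MDM. Averages without them therefore cover only the other classes, where type 2 spontaneous and type 2 transplanted tumours then hold 1 MDM library each. In a bulk library, fewer cells of a type and less RNA per cell cannot be told apart.

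Trem2 was the member that separated the cell types most. The gene lies at chr17:48346401-48354147 (plus strand, mm10) and its principal transcript has 5 exons. It ranged from 29010 to 118238 normalised counts in the 12 microglia libraries (median 53530) and from 516 to 15362 in the 9 MDM libraries (median 4743), so every MDM library lay below every microglia library. It was the 1 member of 10 without overlap in that direction, which 3.06% of all tested genes showed. Averaged over the 4 classes with equal weight, Trem2 was 10.2-fold lower in MDM (log2 fold change -3.35 ± 0.32 SE, adjusted p = 1.6e-07, limma-trend). Without the 5 lymphocyte-rich libraries it was still lower, at -2.16 ± 0.39 (adjusted p = 0.0017).

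Among MDM, Trem2 was far from uniform. The type 1 transplanted libraries held 1659, 928, 527 and 516 normalised counts, the type 1 spontaneous libraries 14496 and 5120, the single type 2 spontaneous library 15362 and the type 2 transplanted libraries 4743 and 14430. The 4 type 1 transplanted libraries were the lowest, and the next was the other lymphocyte-rich library, type 2 transplanted replicate 1, at 4743. Microglia differed far less: their group means ran from 41921 ± 9541 (SD, n = 3) in type 2 transplanted to 71809 ± 44724 (n = 3) in type 1 spontaneous tumours, and neighbouring groups overlapped. As a percentage of the microglia median, Trem2 in MDM stood at 27.1%, 9.57%, 28.7%, 8.86% and 27% in type 1 spontaneous 1 and 2, type 2 spontaneous, and type 2 transplanted 1 and 3, where the summed microglia markers stood at 17.9%, 7.65%, 11.8%, 2.64% and 20.2%. In type 1 transplanted MDM Trem2 stood at 0.965% to 3.1%, close to the 0.994% to 1.7% of those markers. How much of the Trem2 read in MDM libraries came from microglia in the sort was not tested.

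**Figure D1:**
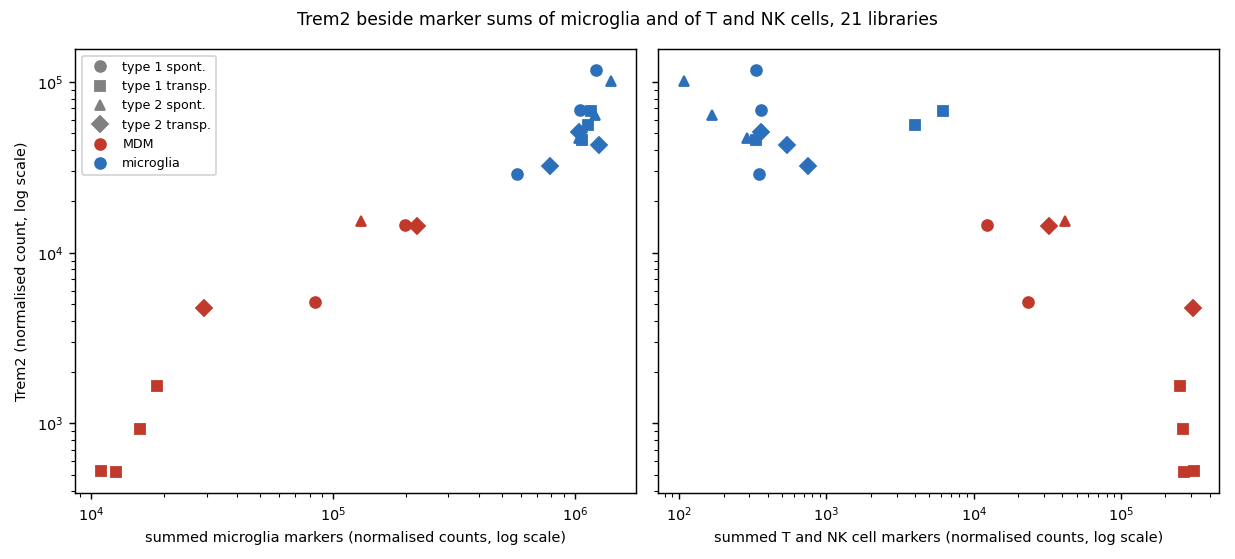
Trem2 in each library (vertical axis, normalised count, log scale) beside the summed level of 10 microglia markers (left) and of the T and NK cell markers (right, both log scales). Colour gives the cell type and shape the tumour class. The 4 type 1 transplanted MDM libraries, at 516 to 1659 normalised counts, have the lowest Trem2 and microglia sums of the 21 libraries and T and NK sums of 251662 or more.

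Tyrobp, which carries the signal of TREM2 and of many other receptors of myeloid and NK cells, differed much less than its receptor. It ranged from 21360 to 118027 normalised counts in microglia (median 52495) and from 11220 to 51832 in MDM (median 22122), with broad overlap. Its fitted difference was -0.64 ± 0.24 (adjusted p = 0.039). That call was lost in 9 of 21 fits that left out 1 library, and without the lymphocyte-rich libraries the difference was -0.13 ± 0.34 (adjusted p = 0.84). Set per kilobase of transcript, Trem2 amounted to 40.6% to 103% of Tyrobp in microglia (median 58%) and to 1.31% to 34% in MDM (median 7.01%), with no overlap between the cell types.

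**Figure D2:**
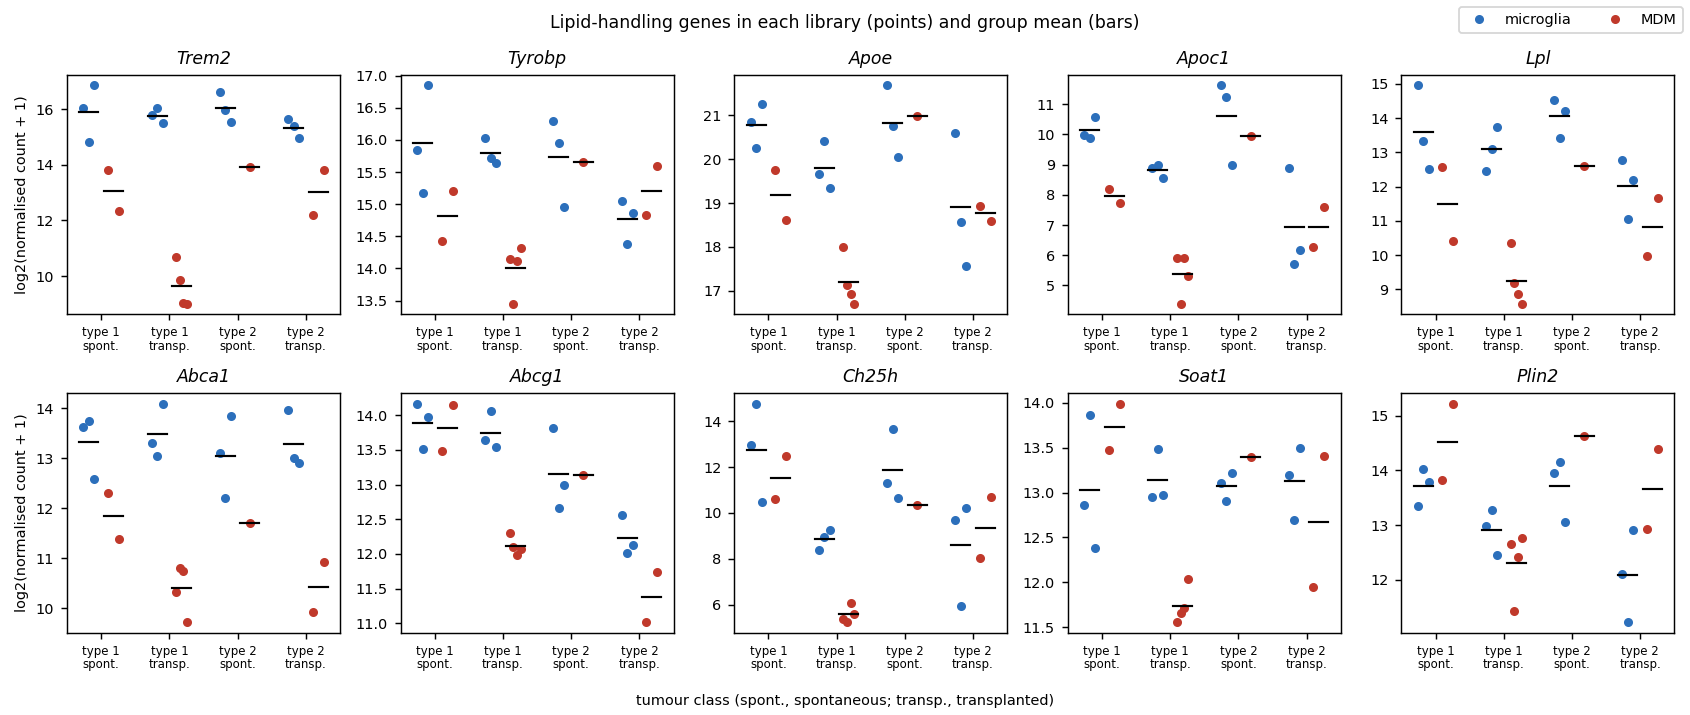
Each point is 1 library and each bar a group mean, on the log2(normalised count + 1) scale, for the 10 genes by tumour class and cell type (microglia blue, MDM red). Trem2 is lower in every MDM library than in any microglia library, whereas Tyrobp, Soat1 and Plin2 overlap, and type 1 transplanted MDM are the lowest group for 8 of the 10 genes.

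Of the 10 members, 7 were lower in MDM over all classes and 0 were higher, where 42.7% of all tested genes were called and 19.8% were lower. The median member stood at -1.19 and the median tested gene at 0.07. Without the lymphocyte-rich libraries 3 of 10 were called, Trem2 and Abca1 lower and Plin2 higher, where 24% of all tested genes were, so this count is near the background.

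Apoe was among the most abundant transcripts of every library, ranking 1 to 19 and taking 0.38% to 7.11% of reads. Its product is the main apolipoprotein of the brain, made by astrocytes and by microglia near damage. The gene lies at chr7:19696109-19699188 (minus strand). Microglia held 192706 to 3365769 normalised counts (median 1326344) and MDM 107142 to 2082002 (median 396584). The MDM library from a type 2 spontaneous tumour, at 2082002, lay among the highest microglia, while the type 1 transplanted MDM libraries held 261491, 142601, 125049 and 107142. The difference was -1.05 ± 0.40 (adjusted p = 0.04), lost in 13 of 21 fits that left out 1 library and at -0.58 ± 0.63 (adjusted p = 0.57) without the lymphocyte-rich libraries. Summed astrocyte and neural stem cell markers were 4580 to 12336 normalised counts in microglia and 632 to 2618 in MDM; of the 10 markers 2 were called lower and 1 higher in MDM. Their part in the Apoe level was not tested.

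Apoc1, which encodes a small apolipoprotein and lies beside Apoe at chr7:19689481-19692660 on the same strand, was expressed at a small fraction of it. It ranged from 52 to 3158 normalised counts in microglia (median 504) and from 20 to 992 in MDM (median 76.3), and was 2.96-fold lower in MDM (-1.57 ± 0.42, adjusted p = 0.0058). The difference was -0.72 ± 0.60 (adjusted p = 0.43) without the lymphocyte-rich libraries. Per kilobase, Apoc1 was 0.0355% to 0.359% of Apoe in microglia and 0.0373% to 0.138% in MDM.

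Lpl (chr8:68880491-68907448) encodes lipoprotein lipase, which frees fatty acids from triglyceride-rich particles. It ranged from 2125 to 31818 normalised counts in microglia (median 9565) and from 383 to 6185 in MDM (median 1307). The highest MDM libraries, 6097 in type 1 spontaneous and 6185 in type 2 spontaneous tumours, exceeded the lowest microglia. Lpl was 4.44-fold lower in MDM (-2.15 ± 0.39, adjusted p = 0.00019), a call kept in all 21 fits that left out 1 library, and -1.30 ± 0.53 (adjusted p = 0.097) without the lymphocyte-rich libraries.

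The exporters parted from each other. Abca1 (chr4:53030787-53159895), which loads cholesterol onto lipid-poor apolipoproteins, ranged from 4752 to 17432 normalised counts in microglia (median 9482) and from 846 to 5094 in MDM (median 1793). Only 1 MDM library, type 1 spontaneous replicate 1 at 5094, reached above the lowest microglia library, type 2 spontaneous replicate 2 at 4752. Abca1 was 4.57-fold lower in MDM (-2.19 ± 0.27, adjusted p = 2.7e-06) and -1.73 ± 0.37 (adjusted p = 0.0044) without the lymphocyte-rich libraries. Abca1 and Trem2 were the members called in all 21 fits that left out 1 library and all 11 other settings of this comparison. Abcg1 (chr17:31057675-31117988), which exports cholesterol to mature lipoproteins, ranged from 4113 to 18343 in microglia (median 11796) and from 2070 to 18211 in MDM (median 4389). The cell types overlapped over most of that range. The Abcg1 difference was -0.64 ± 0.17 (adjusted p = 0.0057), or -0.20 ± 0.24 (adjusted p = 0.62) without the lymphocyte-rich libraries. Abcg1 and Soat1 each overlap a small predicted gene, and Ch25h another, so a few of their reads may belong there. Per kilobase, Abca1 was 21.7% to 150% of Abcg1 in microglia (median 56.3%) and 8.34% to 32.4% in MDM (median 23.2%).

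Ch25h, Soat1 and Plin2 were not called over all classes. Ch25h, which makes the signalling oxysterol 25-hydroxycholesterol and is induced by interferon, had the widest spread of the 10, from 60 to 27644 normalised counts in microglia (median 1313) and from 37 to 5657 in MDM (median 257) (-1.32 ± 0.63, adjusted p = 0.099). Soat1, which esterifies cholesterol for storage, ranged from 5336 to 14883 in microglia (median 8451) and from 3010 to 16257 in MDM (median 4189) (-0.21 ± 0.21, adjusted p = 0.46). Plin2, which coats lipid droplets, ranged from 2392 to 18347 in microglia (median 9223) and from 2744 to 38130 in MDM (median 7792; 0.67 ± 0.28, adjusted p = 0.063). For all 3 the cell types overlapped broadly. Among the 4 MDM libraries that were not lymphocyte-rich, type 1 spontaneous replicate 2 stood apart. Of the 21 libraries it had the highest MDM (451584), border-associated macrophage, dendritic cell, and endothelial and mural marker sums. Within type 1 spontaneous tumours Plin2 was not called (0.80 ± 0.55, adjusted p = 0.36, limma-trend). In those 4 libraries Plin2 stood at 14593, 38130 (that replicate), 25452 and 21537, of which 3 exceeded every microglia library. The share of all genes that did so was not counted. In the fit with those libraries as its only MDM, Plin2 was higher than in microglia (1.34 ± 0.36), while Soat1 was at 0.43 ± 0.26.

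**Figure D3:**
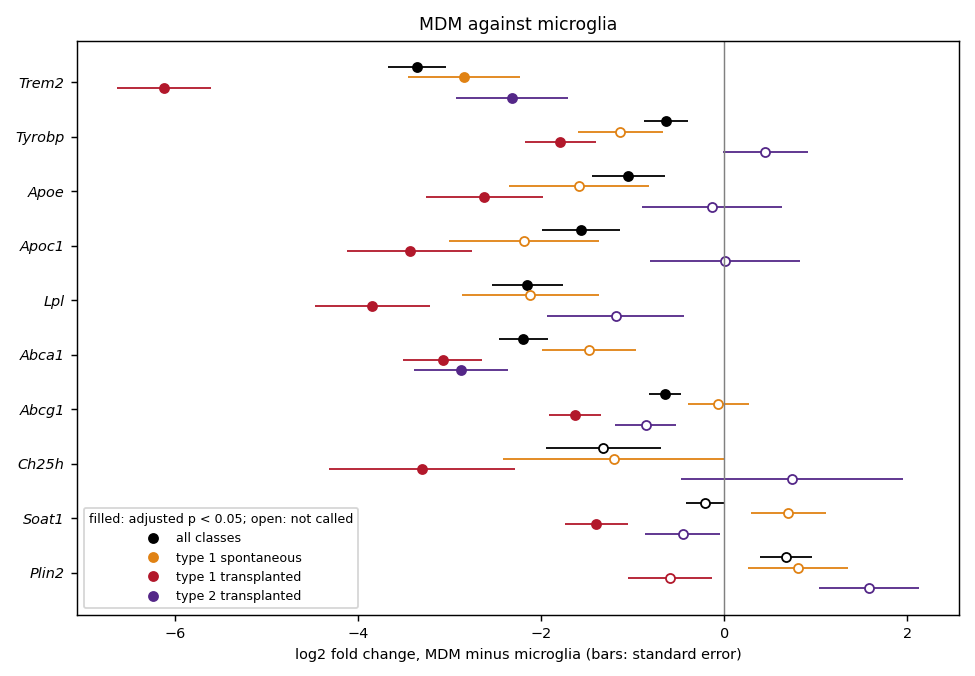
Log2 fold change of MDM minus microglia with its standard error, over all classes and within the 3 classes that hold at least 2 MDM libraries; filled points passed an adjusted p of 0.05. Trem2 is filled in all 4 comparisons, from -2.32 to -6.11, and Plin2 is open in all 4.

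Within single classes the counts differed widely. In type 1 transplanted tumours 9 of 10 members were lower in MDM, where 34.1% of tested genes were called and 15.9% were lower. Trem2 was 69.3-fold lower there (-6.11 ± 0.51, adjusted p = 1.1e-07), followed by Lpl (-3.84 ± 0.63), Apoc1 (-3.43 ± 0.68), Ch25h (-3.30 ± 1.01), Abca1 (-3.08 ± 0.43) and Apoe (-2.62 ± 0.64). Tyrobp (-1.79 ± 0.39), Abcg1 (-1.63 ± 0.28) and Soat1 (-1.40 ± 0.34) were lower too, and Plin2 was at -0.60 ± 0.46 (adjusted p = 0.35). All 4 MDM libraries of this class were lymphocyte-rich, so no value without them can be given, and the lower level of the members cannot be told apart from the share of other cells. The Ch25h call was lost without microglia replicate 4 (adjusted p = 0.056). The count was 4 of 10 (Trem2, Lpl, Abca1 and Abcg1) when 3 microglia libraries were left out, type 1 transplanted replicates 1 and 2, with the highest T and NK sums among microglia, and type 1 spontaneous replicate 2, with the highest MDM marker sum (41124). In that fit 19.4% of all genes were called, and most lost differences stayed about as large: Apoc1 was at -3.18 ± 1.09, Ch25h at -3.70 ± 1.46, Tyrobp at -1.63 ± 0.55, Soat1 at -1.24 ± 0.45 and Apoe at -2.16 ± 0.98.

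In type 1 spontaneous tumours 1 of 10 members was called, Trem2 (-2.84 ± 0.61, adjusted p = 0.0061), against 13.4% of all genes. Leaving out MDM replicate 2, which had the lower Trem2 of the pair, brought the count to 0, leaving out microglia replicate 2 brought it to 2, and leaving out MDM replicate 1 or microglia replicate 3 brought it to 3. In type 2 transplanted tumours 2 of 10 were called, against 18% of all genes: Abca1 (-2.87 ± 0.51, adjusted p = 0.0011) and Trem2 (-2.32 ± 0.61, adjusted p = 0.014). Abca1 stood at 15989, 8219 and 7690 normalised counts in microglia and at 967 and 1945 in MDM of that class. Plin2 stood at 4397, 2392 and 7713 in microglia and 7792 and 21537 in MDM (1.58 ± 0.55, adjusted p = 0.052). Without the lymphocyte-rich MDM replicate 1, which leaves 1 MDM library in this class, 0 of 10 members were called by limma, where 3.69% of all genes were. In that fit Abca1 was at -2.37 ± 0.68 (adjusted p = 0.075), Plin2 at 2.31 ± 0.67 (adjusted p = 0.076) and Trem2 at -1.51 ± 0.72 (adjusted p = 0.26).

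Whether the cell types differed by the same amount in each setting was tested directly. Between transplanted tumours of the 2 types 1 member was called, Trem2 (3.80 ± 0.80, adjusted p = 0.034), against 0.749% of all genes: its drop in MDM was smaller in type 2 than in type 1. Between transplanted and spontaneous type 1 tumours 3 members were called, Trem2 (-3.28 ± 0.80, adjusted p = 0.025), Soat1 (-2.10 ± 0.54, adjusted p = 0.032) and Abcg1 (-1.56 ± 0.44, adjusted p = 0.048), against 4.51% of all genes, each relatively lower in MDM of transplanted tumours. In that second test 7 of 10 microglia markers were called lower (median -4.18), the direction of the 3 called members. In the first test 0 of the 10 markers were called, with a median of 3.06, the direction of Trem2. The part of these markers in the differences was not tested. Neither count was steady: the first became 0 without any 1 of 9 libraries (type 1 transplanted microglia 1 or 2 or MDM 2, 3 or 4, type 2 transplanted microglia 1, 2 or 3 or MDM 3), and 3 without type 2 transplanted MDM 1. The second became 0 without type 1 transplanted microglia 1 or 2 or MDM 3, and 1 without type 1 spontaneous microglia 1 or 3 or MDM 2 or type 1 transplanted MDM 1 or 2 or microglia 4.

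In microglia, few members were called for tumour type or model. Type 2 against type 1 called 1 of 10, against 0.47% of all genes. Abcg1 held 18343, 11689 and 16084 normalised counts in type 1 spontaneous, 12726, 17063 and 11904 in type 1 transplanted, 14457, 6481 and 8125 in type 2 spontaneous and 6060, 4113 and 4484 in type 2 transplanted tumours. The type 2 libraries were the lower ones, with the single exception of type 2 spontaneous replicate 1, and the difference was -1.12 ± 0.21 (adjusted p = 0.02). This call was lost in 8 of 12 fits that left out 1 library (type 1 spontaneous 1 or 3, type 1 transplanted 1 or 2, type 2 spontaneous 2 or 3, type 2 transplanted 2 or 3), at adjusted p values up to 0.073, and in the fits of only the 4 microglia groups and without the 3 microglia libraries with the highest T and NK or MDM sums. In the last of these the Abcg1 difference was -1.11 ± 0.27 (adjusted p = 0.26), where 0.029% of all genes were called. Abca1, by contrast, was at -0.23 ± 0.32 (adjusted p = 0.87), and per kilobase it amounted to 97.5% to 150% of Abcg1 in type 2 transplanted, 34.6% to 103% in type 2 spontaneous and 21.7% to 83.2% in type 1 microglia, so that only the type 2 transplanted libraries stood clear of type 1. Trem2 (-0.15 ± 0.39, adjusted p = 0.94) and Apoe (-0.43 ± 0.48, adjusted p = 0.82) were not called. Markers of oligodendrocytes were also lower in type 2 microglia for 3 of 9 genes, and of astrocytes for 3 of 10.

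Transplanted against spontaneous microglia called 2 of 10 members, both lower, against 1.84% of all genes. The median member stood at -0.90 and the median tested gene at 0.04. An unadjusted p under 0.05 (limma-trend) was reached by 6 of 10 members and by 3339 of the 17216 tested genes. Ch25h held 7967, 27644 and 1438 normalised counts in type 1 spontaneous and 2500, 12803 and 1604 in type 2 spontaneous microglia, but 337, 492 and 613, and 820, 60 and 1187 in the transplanted ones. Every transplanted library was below every spontaneous one, though the share of all genes that did so was not counted. The difference was 11.8-fold (-3.56 ± 0.77, adjusted p = 0.024, limma-trend). Set per kilobase against Soat1, which uses the same substrate, Ch25h amounted to 102% to 1121% in spontaneous and 5.47% to 62.1% in transplanted microglia. Apoc1 held 1022, 934 and 1539 and 3158, 2394 and 504 in spontaneous microglia, against 475, 505 and 376 and 472, 52 and 71 in transplanted microglia. The groups met at 504 and 505, and Apoc1 was 5.7-fold lower (-2.51 ± 0.52, adjusted p = 0.019). Neighbouring Apoe went from 1975331 ± 844157 (SD, n = 6) to 842516 ± 549947 (n = 6) without passing the test (-1.45 ± 0.48, adjusted p = 0.12), as did Plin2 (-1.23 ± 0.35, adjusted p = 0.073) and Lpl (-1.28 ± 0.47, adjusted p = 0.16). Trem2 was at -0.43 ± 0.39 (adjusted p = 0.58), Abca1 at 0.20 ± 0.32 and Soat1 at 0.08 ± 0.26. Of 14 T and NK cell markers 7 were higher in transplanted microglia, with sums of 4022 and 6185 in type 1 transplanted replicates 1 and 2, and 2 of 10 MDM markers were lower. Without those 2 libraries and type 1 spontaneous replicate 2, the library with the highest Ch25h, neither call held, while Apoc1 stood at -2.71 ± 0.72 (adjusted p = 0.082) and Ch25h at -2.86 ± 0.96 (adjusted p = 0.11) and 0.703% of all genes were called. Both calls were also lost without type 2 spontaneous replicate 2 or type 2 transplanted replicate 2, although over all fits that left out 1 library Apoc1 stayed between -3.00 and -2.21 and Ch25h between -4.12 and -2.89. Type 2 transplanted replicate 2, which has the lowest Apoc1 and Ch25h of the microglia, also had their highest neutrophil marker sum (5179 normalised counts, against a median of 131) and astrocyte marker sum (12336). The part of these markers in the result was not tested. The Ch25h call was also lost without type 1 transplanted replicate 1, and the Apoc1 call without type 2 spontaneous replicate 1. Ch25h is a gene of 1 exon (chr19:34473778-34475164) that overlaps an antisense transcript, and the strand of the reads is not given in the sources used here. The model effect differed between tumour types for 0 of 10 members (limma-trend), with 1 at an unadjusted p under 0.05, against 0.0116% of all genes called.

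In MDM of transplanted tumours, type 2 against type 1 called 1 of 10 members, against 5.91% of all genes: Trem2 was 10.3-fold higher in type 2 (3.36 ± 0.58, adjusted p = 0.0029), at 4743 and 14430 normalised counts against 516 to 1659. Without type 2 transplanted replicate 3 its adjusted p was 0.14 and the count 0, and without replicate 1 the count was 4. Ch25h stood at 257 and 1651 in type 2 and at 41, 37, 66 and 46 in type 1, but did not pass the test (3.79 ± 1.15, adjusted p = 0.058, limma-trend). Of the microglia markers 7 of 10 were higher in type 2, as were 3 of 8 markers of border-associated macrophages, while 1 of 14 T and NK and 1 of 5 B cell markers were lower. All 4 type 1 libraries and 1 of the 2 type 2 libraries here were lymphocyte-rich, and the part of these markers in the result was not tested.

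Transplanted against spontaneous MDM of type 1 tumours called 7 of 10 members, all lower, against 13.7% of all genes called and 7.96% lower. Ch25h fell furthest, from 1551 and 5657 normalised counts to 37 to 66 (-5.97 ± 1.15, adjusted p = 0.0021), and Trem2 from 14496 and 5120 to 516 to 1659 (-3.42 ± 0.58, adjusted p = 0.00081). Soat1 went from 11415 and 16257 to 3010, 3217, 3343 and 4189 (-2.00 ± 0.39, adjusted p = 0.0023). Plin2 (-2.22 ± 0.52, adjusted p = 0.0082), Abcg1 (-1.70 ± 0.32, adjusted p = 0.0017), Apoc1 (-2.59 ± 0.78, adjusted p = 0.033) and Lpl (-2.25 ± 0.71, adjusted p = 0.043) were lower as well. The Apoc1 and Lpl calls were each lost in 4 of 6 fits that left out 1 library and 4 of 9 other settings, and Lpl ran from -3.33 without type 1 spontaneous MDM replicate 2 to -1.16 without replicate 1. For all 10 members every transplanted library lay below both spontaneous ones, which held for 19.3% of all tested genes. Tyrobp was at -0.81 ± 0.44 (adjusted p = 0.25), Apoe at -2.00 ± 0.73 (adjusted p = 0.077) and Abca1 at -1.44 ± 0.49 (adjusted p = 0.057). Without type 1 spontaneous MDM replicate 2 the count was 2, and Trem2 was the member whose call was kept in all 6 fits that left out 1 library. Beside these, 9 of 14 T and NK cell markers and 5 of 5 B cell markers were higher in the transplanted group, 7 of 10 microglia markers and 5 of 8 markers of border-associated macrophages were lower, and their part in the result was not tested.

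**Figure D4:**
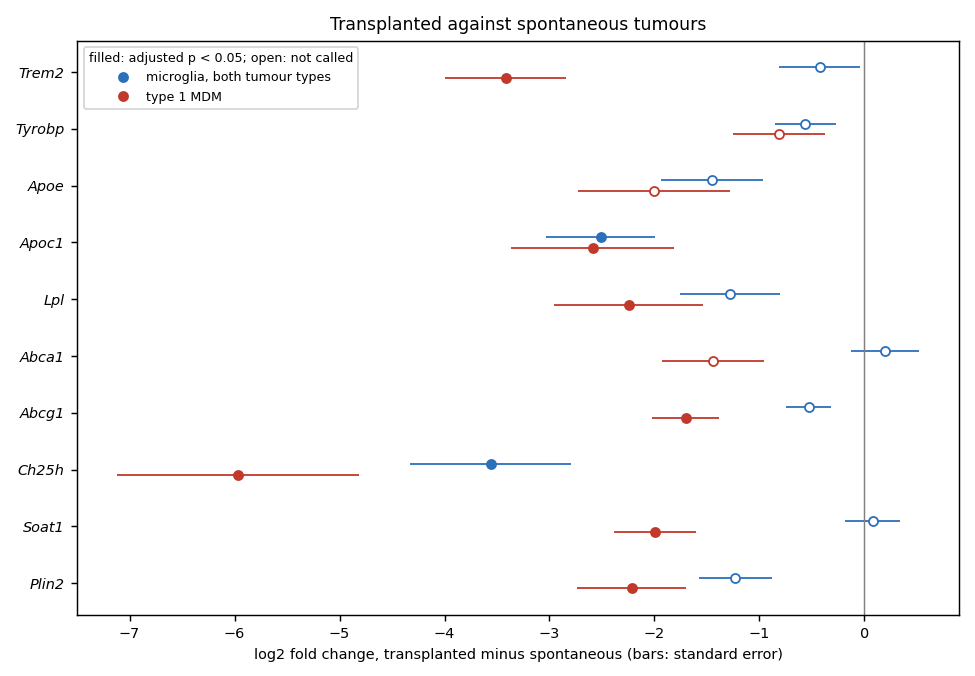
Log2 fold change of transplanted minus spontaneous tumours with its standard error, in microglia of both tumour types (blue) and in type 1 MDM (red); filled points passed an adjusted p of 0.05. Ch25h and Apoc1 are filled in both, while Trem2 is open at -0.43 in microglia and filled at -3.42 in type 1 MDM.

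The wider pathway was read from 5 lists that exclude the 10 members, by the counts of their genes that passed the test in MDM against microglia. In that comparison 42.7% of all tested genes were called and 19.8% were called lower. Among 17 genes of the TREM2 complex and its signalling, 8 were higher and 5 lower (median 0.05). Other members of the receptor family rose in MDM, Treml4 by 3.81 ± 0.37 and Trem3 by 5.54 ± 0.85, as did Ms4a4a (5.07 ± 0.49), a membrane gene linked to soluble TREM2. The sialic acid receptor gene Cd33 was lower (-1.56 ± 0.19). Of 16 lipoprotein and lipase genes 6 were higher and 4 lower (median 0.46): the phospholipid transfer protein Pltp (3.67 ± 0.28), the lipocalin Apod (5.04 ± 0.61) and the receptor Apobr (2.03 ± 0.29) were higher, and the phospholipid-remodelling enzyme Lpcat3 was lower (-1.55 ± 0.14). Of 14 uptake and carrier genes 3 were higher and 4 lower (median 0.33), the fatty acid carriers Fabp4 (7.48 ± 0.64) and Fabp3 (-2.47 ± 0.49) moving in opposite directions.

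Sterol sensing and trafficking had 8 of 21 genes higher and 9 lower (median -0.31). The nuclear receptor Pparg (5.09 ± 0.62) and the sterol-sensing factor Srebf2 (2.39 ± 0.28) were higher, and the transporter Abca9 (-2.71 ± 0.29) and the oxysterol-binding Osbpl1a (-1.70 ± 0.18) were lower. Lipid droplet and fatty acid genes had 7 of 16 higher and 3 lower (median 0.43), with the lipase inhibitor G0s2 (3.14 ± 0.63) and the triglyceride synthase Dgat2 (1.02 ± 0.29) higher and the lipase Mgll (-1.98 ± 0.33) lower. Without the lymphocyte-rich libraries the counts, higher and lower, were 6 and 0 for TREM2 signalling, 5 and 3 for lipoproteins, 1 and 0 for uptake, 6 and 6 for sterol genes, and 2 and 1 for droplets, where 24% of all tested genes were called (2095 higher and 2038 lower). The lower calls of Cd33 and Fabp3 were thus lost in that fit. The differences given above for named list genes come from all libraries. In microglia the lists held 0 called genes for tumour type, where 0.47% of all tested genes were called. For model they held 2, where 1.84% of all tested genes were called. Both were in the droplet list, with Dgat2 lower (-1.64 ± 0.35) and Acsl4, which activates arachidonic acid, higher (1.17 ± 0.27) in transplanted tumours. Both calls were lost without the 3 microglia libraries with the highest T and NK or MDM sums. In type 1 MDM, transplanted against spontaneous, 13.7% of all tested genes were called and 7.96% were called lower. The sterol list had 9 of 21 genes lower and 0 higher there, among them Cyp27a1 (-2.47 ± 0.39), a mitochondrial sterol hydroxylase, and Nceh1 (-1.46 ± 0.28), a cholesteryl ester hydrolase. Uptake had 5 of 14 lower, droplets 4 of 16 lower and 1 higher, TREM2 signalling 4 of 17 lower and 1 higher, and lipoproteins 3 of 16 lower.

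Levels could be ordered between genes per kilobase of the principal transcript. In microglia the mean was 1000656 normalised counts per kilobase for Apoe, 95485 for Tyrobp, 55392 for Trem2, 5398 for Plin2, 3453 for Ch25h, 2904 for Lpl, 1879 for Abcg1, 1802 for Apoc1, 1082 for Soat1 and 1047 for Abca1. In MDM Apoe (387455) and Tyrobp (50809) again led, but Plin2 (7594) stood above Trem2 (5901), and Abca1 was the lowest (213). These MDM means hide differences between libraries: Trem2 exceeded Plin2 in 4 of the 5 MDM libraries outside type 1 transplanted tumours, and in all 4 type 1 transplanted libraries Ch25h and Apoc1 lay below Abca1. Neighbours in the microglia order overlapped between libraries, except that every microglia library held more Trem2 than any held Plin2, so the order of the lower 7 is only approximate.

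**Figure D5:**
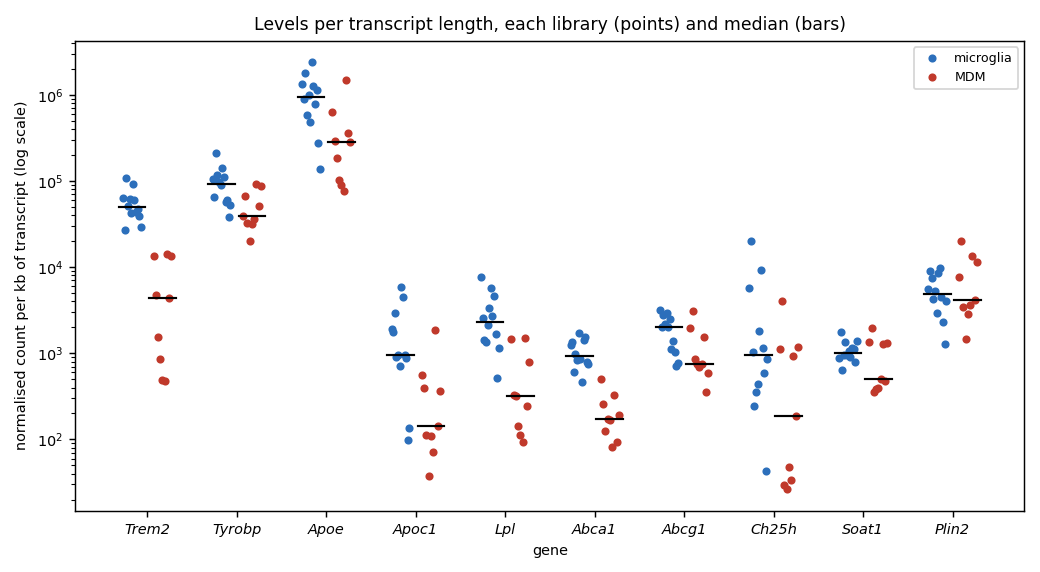
Level of each gene per kilobase of transcript (log scale) in the 12 microglia (blue) and 9 MDM (red) libraries, with the median as a bar. Apoe is highest in both cell types, and Ch25h is the most spread, from 43.4 to 19931 in microglia.

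Genes with the most similar profiles over the 21 libraries were ranked by the root mean square difference of centred log2 levels among 11234 genes. Closest to Trem2 were the 3 chains of complement C1q, C1qc (0.32), C1qb (0.36) and C1qa (0.39), against a spread of 2.50 for Trem2 itself. Tyrobp was closest to Fcer1g (0.27), another signalling adaptor of myeloid and NK cells, then to Hsd17b11 (0.28) and S100a1 (0.31). Abca1 was closest to the lysosomal enzyme gene Gaa (0.42), Soat1 to Ehd4 (0.28), and Plin2 to Sap30 (0.38). Apoc1 was closest to its neighbour Apoe (0.82), and Apoc4 (0.92) of the same cluster was also among its nearest 3. The nearest to Apoe was Ctsa (0.70), to Lpl Apbb2 (0.72), to Abcg1 Cd83 (0.44), and to Ch25h Spp1 at 1.21, where Ch25h itself varied by 2.77. All these genes were read in the same libraries, so cell type and the lymphocyte-rich samples enter every such likeness.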

How the data were processed

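RNA-seq of macrophages sorted from mouse glioblastoma was read from 1 table of 30749 genes and 21 libraries. Per the submitters' processing notes, the authors aligned reads with STAR 2.7.8a to mm10 and used DESeq2 (version not given in the sources used here). Per the labels' protocols, RNA was extracted with TRIzol and chloroform and miRNeasy Micro kits, and libraries were made with SMART-Seq v4. The authors deposited values that resemble log2 levels, with 4.22 for genes without reads, as a variance-stabilising transformation gives. It was inverted in closed form, which gave whole reads for 100% of values within 1e-06. These were divided by size factors and tested as log2(normalised count + 1), although the planned design had assumed normalised counts. Library totals were 26530069 to 50365607 reads.

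limma 3.58.1 with a mean-variance trend (R 4.3.3) was fitted to the 17216 genes with a normalised count of at least 10 in at least 3 libraries, with 8 group means and equally weighted classes. P-values were adjusted by Benjamini-Hochberg over all tested genes, separately in each of 11 comparisons. Samples were grouped by the labels' tumour type, model and cell type, and replicate numbers follow the table's columns. The members, the pathway lists and the marker lists were chosen with earlier results of these data known. Named list genes are those with the smallest p among called genes, at most 4 a list and comparison. Lengths and positions come from GENCODE (GRCm38) and promoters from RefSeq (GRCm38.p6), where 6 of the 10 members had an entry. Alternatives were other filters, pseudocounts, scalings and fits, and each library left out in turn. Figures were drawn with matplotlib 3.10.9 and tables handled with pandas 2.3.3 under Python 3.11.15, and the inversion and the fit were tested on simulated data.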

Additional observations from a re-analysis of the deposited data

Results flagged for a closer look

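The difference between MDM and microglia was not the same in every tumour class for 3 members, by the interaction tests of limma. For Trem2 it was 3.80 ± 0.80 higher on the log2 scale in type 2 than in type 1 transplanted tumours (adjusted p = 0.034), and -3.28 ± 0.80 in transplanted against spontaneous type 1 tumours (adjusted p = 0.025). Over that second contrast Soat1 was at -2.10 ± 0.54 (adjusted p = 0.032) and Abcg1 at -1.56 ± 0.44 (adjusted p = 0.048). Of the 12 fits that left out 1 library, the Trem2 calls were lost in 9 and 4, the Soat1 call in 9 and the Abcg1 call in 11. All 4 tests draw on the type 1 transplanted MDM libraries, whose summed T and NK cell markers were 251662 to 312495 normalised counts. Dixon's test flagged no library in 60 tests of the 10 members over 6 sets of 4 to 10 libraries. Only type 1 transplanted MDM, with 4 libraries, could form such a set by itself. Any other set of that size pools groups, and groups of 1 to 3 libraries were not tested alone. The test therefore cannot show whether a library stood apart within those smaller groups.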

How the results depend on the processing

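The number of the 10 members called moved with the libraries used. The fit without the 5 lymphocyte-rich MDM libraries held no type 1 transplanted MDM and 1 MDM library of type 2 transplanted tumours. In it the number called went from 7 over all classes to 3 over the classes left. Without the 3 microglia libraries with the highest T and NK or MDM sums (type 1 spontaneous 2, type 1 transplanted 1 and 2) it went from 9 to 4 in type 1 transplanted and from 1 to 2 in type 1 spontaneous tumours, and to 0 for tumour type and for model in microglia and for both interactions of cell type. Fitting only the groups compared gave 0 in type 1 spontaneous, 1 in type 2 transplanted, 0 for tumour type and 0 for model in microglia, 0 for type in transplanted MDM and 2 for the interaction with tumour type. Quantile normalization gave 2 in type 1 spontaneous, 4 in type 2 transplanted, 2 for type in transplanted MDM and 1 for the interaction with model. Scaling to the same total gave 2 for type in transplanted MDM and 0 for both interactions. It also moved the median of all genes in MDM against microglia from 0.07 to 0.29 and the share of calls that were higher from 53.7% to 67.4% (quantile normalization: 45.4%). Without a filter the counts were 1 for model in microglia and 0 for both interactions. Leaving out 1 library gave 0 to 3 in type 1 spontaneous tumours, 0 to 1 for tumour type and 0 to 3 for model in microglia, 0 to 4 for type in transplanted MDM, 2 to 7 for model in type 1 MDM, and 0 to 3 and 0 to 2 for the interactions with tumour type and model.

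Among single members, 1943 alternative values kept direction and call, 143 lost and 44 gained a call, and 60 turned sign, none of them called. Soat1 was 0.02 over all classes at the same total, and 0.43 over the classes left without lymphocyte-rich libraries. In type 2 transplanted tumours Soat1 was 0.28 without them (leave-one-out -1.19 to 0.28), Apoe 0.08 under quantile normalization (-0.81 to 0.71), Ch25h -0.60 to 2.08 on leaving out 1 library, and Apoc1 -0.02 with a pseudocount of 8, -0.23 under quantile normalization and -0.06 on the deposited values (-0.66 to 0.98). Abcg1 in type 1 spontaneous tumours was 0.02 at the same total (-0.40 to 0.27). For tumour type in microglia Trem2 was 0.03 under quantile normalization (-0.43 to 0.08), and leaving out 1 library gave Lpl -0.59 to 0.02, Ch25h -1.13 to 0.10 and Soat1 -0.15 to 0.22. For model it gave Abca1 -0.01 to 0.40 and Soat1 -0.08 to 0.29. For type by model in microglia Trem2 was 0.26, Abca1 -0.74 (-0.34 to 0.48) and Ch25h -0.79 (-0.39 to 1.95) without the 3 microglia libraries, and Soat1 0.07 under quantile normalization and 0.14 at the same total (-0.46 to 0.28). Abca1 was -0.26 for type in transplanted MDM (-0.49 to 0.52) and -0.29 for the interaction with tumour type (-0.30 to 0.71) at the same total. The causes were not tested.

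Same-numbered libraries correlated at 0.035 to 0.241 in 7 pairs, over 0.1 in 2, and the main fit did not pair them. These values cannot settle whether the numbers pair samples, so fits with a block are given too. With the replicate block (correlation 0.14) the count over all classes was 8, in type 1 spontaneous tumours it was 3, the Lpl call for model in type 1 MDM was lost, Apoc1 in type 2 transplanted tumours was -0.08 and Abca1 for type in transplanted MDM was -0.00. With the block as a fixed effect the count over all classes was 6: Tyrobp and Apoe were lost and Ch25h was gained. The Tyrobp and Apoe calls were also lost under quantile normalization, at the same total and without a filter. Groups of 1 to 4 MDM libraries limit every comparison in MDM, and a class left with 1 library borrowed its spread from the others. Only 1 class with replicated MDM, type 1 spontaneous, has no lymphocyte-rich library.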
